A study of Mus musculus with 10 samples.

Results

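Immediate early genes are the first genes that a cell transcribes after a stimulus such as a growth factor, calcium entry or stress, and their induction needs no newly made protein. Serum response factor with its ETS partners, acting at CArG boxes, and CREB, acting at cyclic AMP response elements, carry the signal from MAP kinases and other pathways to their promoters. Most of the genes encode transcription factors, such as the Fos and Jun proteins of AP-1 and the zinc finger proteins of the EGR family, and others encode enzymes that end the signal. In tissues they are also known to respond to injury and to the preparation of cells. The list used here held 12 of them, namely Fos, Fosb, Jun, Junb, Egr1, Egr2, Egr3, Atf3, Nr4a1, Dusp1, Ier2 and Ier3, and a probe set was taken as a member when its only gene symbol was on that list.

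Of the 12 genes, 4 were in the deposited table, with 5 of its 3663 probe sets. Egr2 had the probe sets 1427682_a_at and 1427683_at, Egr3 had 1436329_at, Nr4a1 had 1416505_at and Ier2 had 1416442_at. Fos, Fosb, Jun, Junb, Egr1, Atf3, Dusp1 and Ier3 were not in the table and were not analysed here, and no probe set with several symbols named a gene of the list. The authors kept only probe sets above a minimum level that varied at least 4-fold between arrays (the smallest range was 2.00 on the log2 scale), so each of the 4 genes had to differ somewhere among the arrays, and nothing is known here of the other 8.

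The samples were mammary cells of virgin FVB female mice aged 6 to 8 weeks, sorted by flow cytometry into 5 populations with 2 arrays each. Thy-1+CD24medCD49fhigh cells, Thy-1-CD24medCD49fhigh cells and CD24medCD49fmed cells are called basal here (6 arrays), and CD24highCD49fmed and CD24medCD49f-/low cells luminal (4 arrays). The series describes them, in that order, as stem, progenitor, myoepithelial, luminal progenitor and differentiated luminal cells, names that rest on surface phenotype and not on single cells, and the study's text calls the myoepithelial gate CD24lowCD49fmed. The labels name no treatment of the mice, glands were digested with enzymes before sorting, and no array was of undigested tissue. Cells that carried blood or endothelial surface proteins (CD45, CD31, Ter119) were left out. The study's methods also list an antibody to the fibroblast protein CD140α, but do not state that cells with it were left out. Nothing states whether separate animals gave the 2 arrays of a population, so the p-values speak of the spread among these arrays, which may be technical.

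The values are log2 intensities that the authors centred, so that each probe set averages 0 over the 10 arrays. A difference of 1 is thus a 2-fold difference, but the level of a gene, and whether it was above background, cannot be read. In bulk samples, fewer cells that express a gene and less RNA per cell cannot be told apart. The labels held against the basal markers, of which 10 of 10 listed were higher in basal cells (Krt14 by 4.49). They also held against the luminal markers, of which 10 of the 11 in the table were lower (Foxa1 by -3.25) and Krt19 was not called. The summed centred log2 value of the 11 was 7.92 to 17.5 in luminal arrays and varied widely in basal ones. It was -22.6 in CD24medCD49fmed replicate 2, and 1.63 in Thy-1+CD24medCD49fhigh replicate 2 against -11.4 in its partner. Only in CD24highCD49fmed cells did both arrays correlate best with each other (0.924). Thy-1-CD24medCD49fhigh replicate 1 correlated at 0.647 with its partner and at 0.753 with a CD24medCD49fmed array. The CD24medCD49fmed arrays correlated at 0.669 with each other and at 0.836 and 0.681 with Thy-1+CD24medCD49fhigh replicate 1. The arrays of 2 populations were the most uneven. Over all probe sets, CD24medCD49f-/low replicate 1 correlated at 0.364 with its partner and at 0.761 with a CD24highCD49fmed array, and Thy-1+CD24medCD49fhigh replicate 1 correlated at 0.449 with its partner and at 0.836 with a CD24medCD49fmed array.

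Egr2 and Egr3 were higher in all 6 basal than in all 4 luminal arrays, on average by 1.88 and 2.66 on the log2 scale, and Nr4a1 was higher by 1.06, a call that was lost when any of several single arrays was left out. Ier2 was not called. Calls were made in limma where p, adjusted by Benjamini-Hochberg over 2932 features (named genes and unnamed probe sets), was under 0.05. Of the 4 genes, 3 were called higher and 0 lower, where 34.7% of all features were called higher, 41.3% lower and 76% in either direction. A call in this comparison was therefore common in the table. Basal and luminal arrays did not overlap in Egr2, Egr3 and Nr4a1, all higher, against 25.2% of features that did not overlap in that direction. Egr2 passed the authors' filter on range only through this gap, so its lack of overlap went with being in the table. Nr4a1 passed only through 1 low luminal array, and its gap was 0.012.

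**Figure D1:**
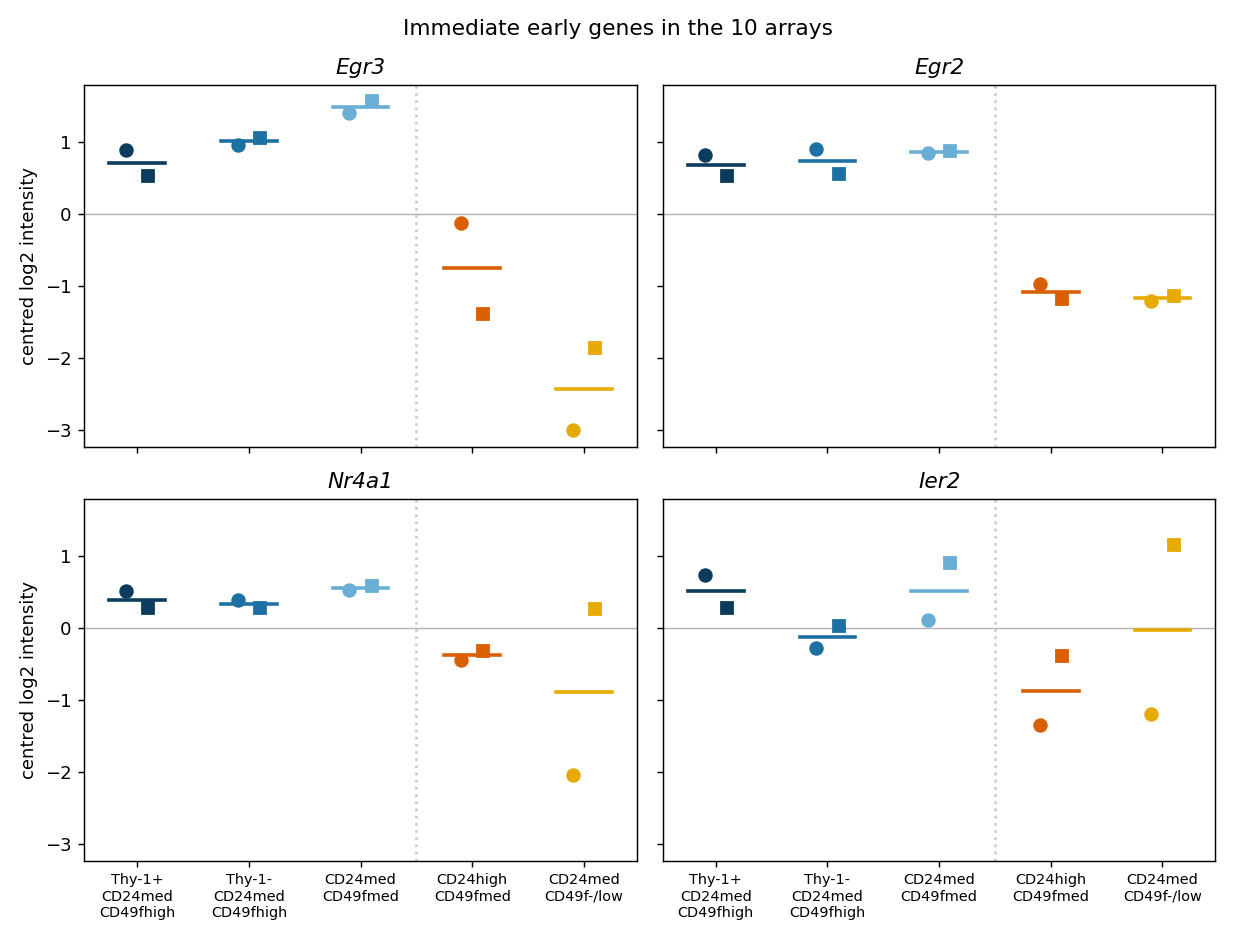
Centred log2 intensity (y axis) of Egr3, Egr2, Nr4a1 and Ier2 in each of the 10 arrays, by population (x axis). Circles are the lower-numbered and squares the higher-numbered replicate, short lines are the mean of the 2 arrays, and the dotted line parts the 3 basal populations on the left from the 2 luminal ones. All 6 basal arrays lie above all 4 luminal arrays for Egr3 and Egr2, by 0.012 for Nr4a1, and not for Ier2, whose highest value is in CD24medCD49f-/low replicate 2.

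Egr3 is a zinc finger transcription factor that binds GC-rich elements and is known for its role in muscle spindle development. Its values were 0.88 and 0.53 in Thy-1+CD24medCD49fhigh cells, 0.96 and 1.05 in Thy-1-CD24medCD49fhigh cells, 1.40 and 1.56 in CD24medCD49fmed cells, -0.13 and -1.38 in CD24highCD49fmed cells, and -3.00 and -1.86 in CD24medCD49f-/low cells. The 6 basal arrays lay close together and the 4 luminal arrays were spread over nearly 3 log2 units, with CD24medCD49f-/low lowest. The mean was 1.06 ± 0.37 in basal arrays and -1.60 ± 1.19 in luminal arrays (SD, n = 6 and 4). The difference was 2.66 ± 0.35 (SE), or 6.32-fold, with an adjusted p of 3.11e-06 in limma, and Egr3 ranked 186 of 2932 features by the size of the difference.

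Egr2, also called Krox20, is a relative of Egr3 that is known for hindbrain patterning and for myelination by Schwann cells. Averaged over its 2 probe sets, its values were 0.82 and 0.53 in Thy-1+CD24medCD49fhigh cells, 0.90 and 0.55 in Thy-1-CD24medCD49fhigh cells, 0.84 and 0.87 in CD24medCD49fmed cells, -0.98 and -1.18 in CD24highCD49fmed cells, and -1.21 and -1.14 in CD24medCD49f-/low cells. This was the tightest of the 4 patterns, with each side spanning less than 0.4 and a wide gap between them. The difference was 1.88 ± 0.31 (SE), or 3.68-fold, with an adjusted p of 4.22e-05 in limma. Both probe sets gave it when tested alone, 1427682_a_at with 2.03 ± 0.32 and 1427683_at with 1.73 ± 0.32. Each had to vary at least 4-fold to be kept, and neither varied that much within a side. Their agreement is therefore no independent check, since a probe set without the difference would have been left out.

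The sequence before an Egr2 start is shown because it holds the elements that immediate early genes are known for. That before an Nr4a1 start is shown because it holds one kind of them and no exact match to the other. Each is the 130 bases that end at a RefSeq transcript start (build GRCm38.p6, forward strand), chr10:67537739-67537868 for Egr2 and chr15:101266716-101266845 for Nr4a1. Capitals mark a CArG box, the binding sequence of serum response factor, searched only as exact matches to CCWWWWWWGG, where W is A or T. They also mark the core of the cyclic AMP response element, searched as CGTCA and TGACG so that both strands are covered. The searched motifs did not overlap.
Egr2: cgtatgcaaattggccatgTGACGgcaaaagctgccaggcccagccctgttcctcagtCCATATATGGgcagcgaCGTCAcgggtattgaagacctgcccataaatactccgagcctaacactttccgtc
Nr4a1: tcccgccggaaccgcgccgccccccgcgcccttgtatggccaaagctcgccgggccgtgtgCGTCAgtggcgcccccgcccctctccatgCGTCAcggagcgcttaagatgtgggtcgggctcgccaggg

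The Egr2 stretch holds 1 CArG box, which begins 72 bases before the start, and 2 core sites, which begin 111 and 55 bases before it. The windows used covered 5 RefSeq starts of Egr2, and a CArG box lay within 250 bases before 4 of them. Starts that lie close together share the same box, so these are not 4 separate boxes. The Nr4a1 window of 250 bases held 4 core sites, at 233, 213, 69 and 40 bases before the start, and no exact match to the CArG pattern. Near matches were not counted, such as CCTTGTATGG in the printed stretch, which has a G among its inner bases. The search thus does not show that Nr4a1 lacks a site for serum response factor. Both RefSeq genes begin upstream of the windows, at chr10:67534469 for Egr2 and chr15:101253902 for Nr4a1. Sequence before those positions was not searched. In the same window, a CArG box was found before 1.62% of 27025 genes and a core site before 19.8%. A match is a run of letters and not a measured binding site. Of the 4 genes in the table, 2 had promoter windows, and Egr3 and Ier2 are named only.

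Nr4a1 (Nur77) is an orphan nuclear receptor whose gene is induced by many stimuli. Its values were 0.51 and 0.27 in Thy-1+CD24medCD49fhigh cells, 0.39 and 0.28 in Thy-1-CD24medCD49fhigh cells, 0.52 and 0.58 in CD24medCD49fmed cells, -0.45 and -0.31 in CD24highCD49fmed cells, and -2.04 and 0.26 in CD24medCD49f-/low cells. The basal arrays were nearly level, the lowest luminal value stood far below the rest, and its partner array lay just under the lowest basal value. The mean was 0.42 ± 0.13 in basal arrays and -0.64 ± 0.99 in luminal arrays (SD, n = 6 and 4). The difference was 1.06 ± 0.39 (SE), or 2.09-fold, with an adjusted p of 0.0178 in limma. The call was lost without replicate 1 of CD24medCD49f-/low cells, where the difference was 0.49 (adjusted p 0.164 in limma). It was also lost, with differences of 1.02 to 1.04 (adjusted p 0.0533 to 0.0565), without replicate 1 of Thy-1+CD24medCD49fhigh, of Thy-1-CD24medCD49fhigh or of CD24highCD49fmed cells. Without CD24medCD49f-/low replicate 2 the difference was 1.64.

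Ier2 encodes a nuclear protein that is induced with the early growth response genes. Its values were 0.74 and 0.28 in Thy-1+CD24medCD49fhigh cells, -0.28 and 0.03 in Thy-1-CD24medCD49fhigh cells, 0.11 and 0.91 in CD24medCD49fmed cells, -1.34 and -0.40 in CD24highCD49fmed cells, and -1.20 and 1.15 in CD24medCD49f-/low cells. The arrays of CD24medCD49f-/low held the highest and the second lowest of the 10 values. The difference was 0.75 ± 0.41 (SE), with an interval of -0.10 to 1.60 and an adjusted p of 0.100 in limma. It was 1.33 without CD24medCD49f-/low replicate 2, and was then called (adjusted p 0.00126), and 0.16 without replicate 1.

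An exact two-sided permutation test over the 210 ways to choose 6 of the 10 arrays gave p = 0.00476 for Egr2, Egr3 and Nr4a1, the smallest that it can give, and p = 0.171 for Ier2. That test treats the arrays as exchangeable across populations. The filter on range used these same values, so its p-values, like those of limma, come after a selection. Egr2 varied less than 4-fold within each side and was kept only through the gap between basal and luminal arrays. Nr4a1 was kept only through its low value in CD24medCD49f-/low replicate 1 (-2.04). For Egr2 the difference stayed between 1.82 and 1.94 with any 1 array left out, and for Egr3 between 2.35 and 2.97, called each time.

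**Figure D2:**
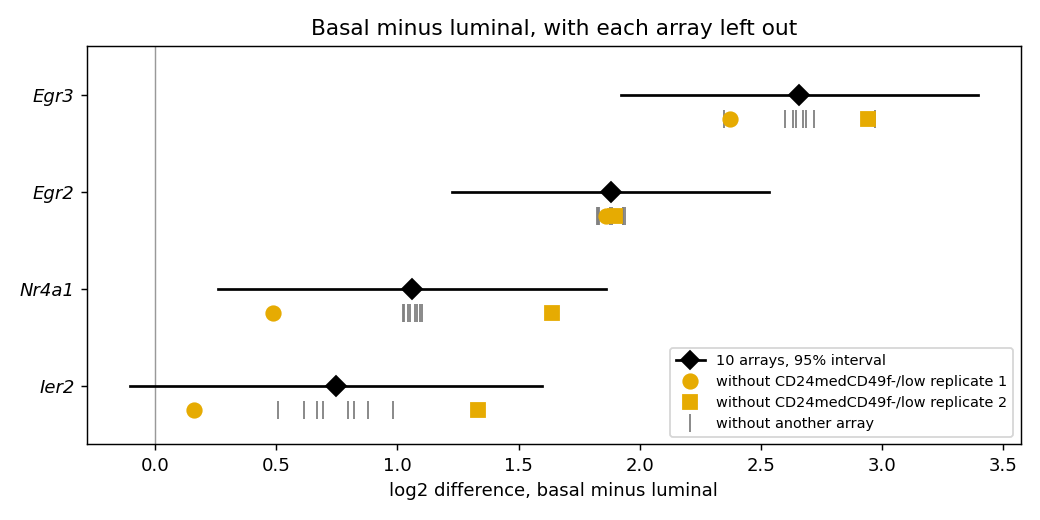
Log2 difference, basal minus luminal (x axis), of each gene. Diamonds with lines are the limma estimate over 10 arrays with its 95% interval, and the marks under each diamond are the estimates with 1 array left out, where yellow circles and squares are those without a CD24medCD49f-/low array. Egr2 hardly moves, while Nr4a1 lies at 0.49 or 1.64 and Ier2 at 0.16 or 1.33, depending on which CD24medCD49f-/low array is left out.

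Among the 5 populations, Egr2 and Egr3 had the same order, with CD24medCD49fmed highest, then Thy-1-CD24medCD49fhigh, Thy-1+CD24medCD49fhigh, CD24highCD49fmed and CD24medCD49f-/low. The Egr2 probe set 1427683_at alone reversed the luminal order, with -1.08 in CD24highCD49fmed and -0.995 in CD24medCD49f-/low cells. For neither gene was a difference called within the basal or within the luminal populations. A test of any difference among the populations (F test in limma) called Egr3 (adjusted p 4.34e-05) and Egr2 (adjusted p 0.00127) but not Nr4a1 (adjusted p 0.147) or Ier2 (adjusted p 0.249), and 58.4% of features were called. Egr2 and Egr3 were called higher in each of the 3 basal populations than in each of the 2 luminal ones. The largest such difference was that of Egr3 between CD24medCD49fmed and CD24medCD49f-/low cells, 3.91 ± 0.55 (SE, adjusted p 4.55e-05 in limma). The smallest was that of Egr3 between Thy-1+CD24medCD49fhigh and CD24highCD49fmed cells, 1.46 ± 0.55 (adjusted p 0.0289). Features called higher made up 26.3%, 21.8% and 27.4% in Thy-1+CD24medCD49fhigh, Thy-1-CD24medCD49fhigh and CD24medCD49fmed cells against CD24highCD49fmed cells, and 18.9%, 17.4% and 22% against CD24medCD49f-/low cells. These 6 comparisons share arrays.

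Nr4a1 followed the order CD24medCD49fmed, Thy-1+CD24medCD49fhigh, Thy-1-CD24medCD49fhigh, CD24highCD49fmed and CD24medCD49f-/low. No pair of populations was called for it. The nearest to a call was CD24medCD49fmed against CD24medCD49f-/low cells, with 1.44 ± 0.60 (SE, adjusted p 0.0630 in limma). Ier2 alone departed from this layout, with CD24medCD49f-/low cells at rank 3 of the 5, next above Thy-1-CD24medCD49fhigh cells, where Thy-1-CD24medCD49fhigh minus CD24medCD49f-/low was -0.10 ± 0.63 (adjusted p 0.907). Its nearest to a call was CD24medCD49fmed against CD24highCD49fmed cells, with 1.38 ± 0.63 (adjusted p 0.0590).

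Within the luminal cells, Egr3 had values of -0.13 and -1.38 in CD24highCD49fmed cells, against -3.00 and -1.86 in CD24medCD49f-/low cells. The arrays did not overlap, but the difference of 1.68 ± 0.55 (SE) did not pass after adjustment (adjusted p 0.170 in limma, unadjusted p 0.00598). It passed without CD24medCD49f-/low replicate 2, with 2.25 (adjusted p 0.0330). Of the 4 genes, 0 were called and 1 had an unadjusted p under 0.05, where 0.205% and 15.4% of features did, and Egr3 was the 1 gene of the 4 whose arrays did not overlap, as in 51.7% of features. Ier2 had the opposite sign, -0.85 ± 0.63 (adjusted p 0.488), and was called without CD24medCD49f-/low replicate 1 (-2.02, adjusted p 0.0323). The difference was 0.51 ± 0.60 for Nr4a1 (interval -0.73 to 1.75) and 0.09 ± 0.49 for Egr2 (interval -0.92 to 1.10).

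The basal populations were compared with each other in the same fit. Thy-1, a surface glycoprotein, was used to divide the CD24medCD49fhigh gate, and Thy-1+ minus Thy-1- cells of that gate the difference was -0.30 for Egr3 (interval -1.45 to 0.84), -0.05 for Egr2 (-1.07 to 0.96), 0.06 for Nr4a1 (-1.19 to 1.30) and 0.63 for Ier2 (-0.69 to 1.95). None was called by limma or had an unadjusted p under 0.05, where 0.0682% of features were called and 2.52% had such a p. The arrays did not overlap for Egr3, lower in Thy-1+ cells, and Ier2, higher in them, 2 of the 4 genes, against 22.5% of features. Each interval reaches a 2-fold difference (1 on the log2 scale) in at least 1 direction, so 2 arrays a population do not show Thy-1+ and Thy-1- cells to be alike.

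CD24medCD49fmed and Thy-1+CD24medCD49fhigh cells were level for Ier2, with a mean of 0.51 in both. For Egr3, Egr2 and Nr4a1, CD24medCD49fmed cells had the highest mean. Against the mean of the 2 CD24medCD49fhigh populations they were higher by 0.63 for Egr3 (interval -0.36 to 1.61), by 0.15 for Egr2 (-0.72 to 1.03), by 0.19 for Nr4a1 (-0.88 to 1.26) and by 0.32 for Ier2 (-0.82 to 1.46). None was called by limma (adjusted p 1.00 for each) or had an unadjusted p under 0.05, where 0.0341% and 1.77% of features did. The arrays of Egr3 and Nr4a1 did not overlap, 2 of the 4 genes, against 7.13% of features.

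The 2 arrays of a population differed most in the luminal cells. In CD24medCD49f-/low cells, replicate 2 was higher than replicate 1 by 2.34 for Ier2, by 2.30 for Nr4a1, by 1.14 for Egr3 and by 0.07 for Egr2. Ier2 and Nr4a1 thus differed more between these 2 arrays than between basal and luminal cells, and more than 93.9% and 93.3% of all features did, while Egr2 differed more than only 5.83% of features. With each array's median set to 0, which lowers this contrast by 0.37, the same differences were 1.98, 1.93, 0.77 and -0.30. In CD24highCD49fmed cells, Egr3 and Ier2 moved opposite ways, with Egr3 lower in replicate 2 by 1.25 (a size above 97.7% of features) and Ier2 higher by 0.95 (above 94.8%).

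In the basal populations the 4 genes were mostly close between the 2 arrays. The largest difference was 0.79 for Ier2 in CD24medCD49fmed cells (replicate 3 above replicate 2), and every other was under 0.5 in size. The median absolute difference of the 4 genes was 0.32 in Thy-1+CD24medCD49fhigh cells, where it was 0.54 over all features, 0.21 in Thy-1-CD24medCD49fhigh cells (0.49 over all), 0.11 in CD24medCD49fmed cells (0.42 over all), 0.58 in CD24highCD49fmed cells (0.31 over all) and 1.72 in CD24medCD49f-/low cells (0.74 over all). The median of the 4 was thus below that of all features in the 3 basal populations and above it in both luminal ones. Single genes departed from this, with Ier2 in CD24medCD49fmed cells differing more than 79.0% of features, and Egr2 and Nr4a1 in CD24highCD49fmed cells more than only 34.4% and 22.8%.

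**Figure D3:**
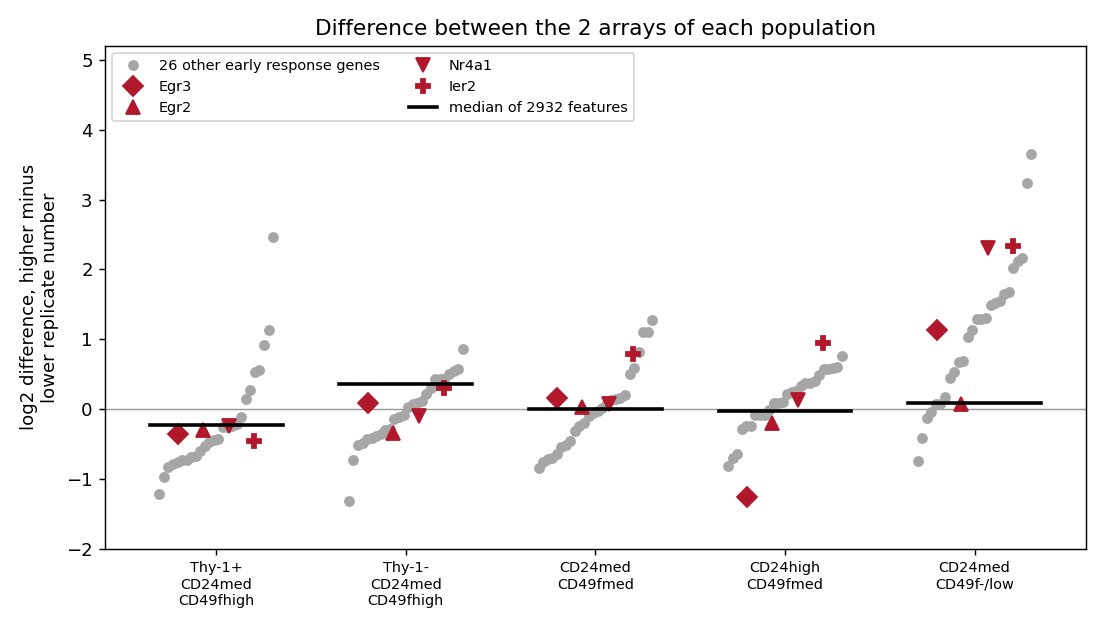
Log2 difference between the 2 arrays of each population, higher minus lower replicate number (y axis), by population (x axis). Red symbols are Egr3, Egr2, Nr4a1 and Ier2, grey points are 26 other early response genes sorted by value, and black lines are the median of 2932 features. In CD24medCD49f-/low cells 22 of the 26 grey points lie above 0, with Socs3 at 3.65 and Per1 at 3.23.

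The other early response genes of the table showed the same unevenness between the CD24medCD49f-/low arrays. These were 26 genes of 4 lists (relatives of AP-1, other transcription factors, other induced proteins, and feedback inhibitors of MAP kinase signalling), which were joined for this count after values had been seen. In CD24medCD49f-/low cells 22 of the 26 were higher in replicate 2, with a median of 1.21 and a range of -0.74 to 3.65, where 54.0% of all features were higher and the median was 0.09. Socs3, an inhibitor of cytokine signalling, differed most, at -3.07 in replicate 1 and 0.57 in replicate 2. Per1, a clock gene that is induced through CREB, had -1.65 and 1.58, and Klf6, a zinc finger factor, had -0.85 and 1.32. Nfkbia, Cxcl2, Maf and Arc were lower in replicate 2, by 0.74 for Nfkbia, which encodes the NF-kB inhibitor IκBα, and by 0.04 to 0.42 for the others. The summed centred log2 value of 3 heat shock genes also differed in this pair, with -3.89 in replicate 1 and -0.35 in replicate 2, and so did that of 11 luminal markers, with 7.92 and 17.5. The erythroid marker Hba-a2 had -1.80 and 0.99, the leukocyte marker Lcp1 0.56 and 1.23, 10 basal markers summed to -16.0 and -14.1, and 4 fibroblast markers to -2.31 and -3.16. Their part in the difference was not tested.

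In the other populations the median difference of the same 26 genes was smaller in size, and the replicate numbers set only its sign. In Thy-1+CD24medCD49fhigh cells 7 of 26 were higher in replicate 2 (38.5% of all features), so most were lower. Their median there was -0.44 beside -0.23 over all features, and the 4 immediate early genes were also lower (-0.46 to -0.24). In Thy-1-CD24medCD49fhigh cells 13 of 26 were higher in replicate 2 (74.0% of all features). CD24highCD49fmed cells had 16, which is 61.5% beside 47.3% of all features, with a median of 0.16 beside -0.03. In CD24medCD49fmed cells 12 were higher in replicate 3 (49.6% of all features). The median difference lay between -0.44 and 0.16 in these 4 populations, and the differences between populations were not tested. Cxcl2, a chemokine, stood out in Thy-1+CD24medCD49fhigh cells with -1.92 in replicate 1 and 0.55 in replicate 2.

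Between basal and luminal cells the wider early response did not move as one, and its lists are described by counts and medians, to be read beside a median of -0.11 over all features, of which 34.7% were called higher and 41.3% lower. Of 16 relatives of AP-1, 4 were in the table, with a median of 0.29. Maf, a basic leucine zipper factor, was higher in basal cells by 2.07 ± 0.32 (SE, adjusted p 1.78e-05 in limma). Atf5 (0.50), Atf2 (0.08) and Batf (-0.51), which belong to the ATF and AP-1 families, were not called. Without CD24medCD49f-/low replicate 1 Batf was called lower (-1.05), and without replicate 2 Atf5 was called higher (1.01).

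Of 21 other early response transcription factors, 5 were in the table, with a median of -0.33. Irf1, an interferon regulatory factor, was higher by 1.15 ± 0.36 (adjusted p 0.00718 in limma) and Per1 by 1.08 ± 0.47 (adjusted p 0.0417). Klf2, a zinc finger factor, was lower in basal cells by a difference of -1.78 ± 0.31 (adjusted p 7.00e-05). Klf6 (-0.42) and Id2 (-0.33), an inhibitor of basic helix-loop-helix factors, were not called. Per1 lost its call without any of 7 of the 10 arrays, with 0.27 (adjusted p 0.488) without CD24medCD49f-/low replicate 1, and was 1.89 without replicate 2. Irf1 lost it without CD24highCD49fmed replicate 1 (0.96, adjusted p 0.0594). Klf6 was called lower without CD24medCD49f-/low replicate 1 (-0.97, adjusted p 0.0113).

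Of 39 other induced proteins, 13 were in the table, with a median of 1.14, and 9 were called higher in basal cells and 3 lower, 12 of 13 in either direction beside 76% of all features, and 1 was not called. Ccn2, a matrix protein induced through SRF and YAP, was the highest at 3.17 ± 0.34 (SE, adjusted p 2.07e-07 in limma), followed by Thbs1 (thrombospondin 1) at 2.57, Socs3 at 2.45, Rnd3 at 1.93, Arc at 1.79, Errfi1 (an inhibitor of the EGF receptor) at 1.61, Ptgs2 (cyclooxygenase) at 1.14, Zfp36l1 at 1.13 and Ccn1 at 0.95. Tob1 (-2.04), an antiproliferative protein, Cxcl2 (-2.02) and Nfkbia (-1.55) were lower, and Btg2 (0.76), a relative of Tob1, was not called. Without CD24medCD49f-/low replicate 1, Socs3 was 1.54 and still called, and Zfp36l1 (0.72) and Ccn1 (0.58) were not called. Without CD24medCD49f-/low replicate 2 (1.15) or Thy-1+CD24medCD49fhigh replicate 2 (0.88), Btg2 was. Ccn1 also lost its call without CD24highCD49fmed replicate 1 (0.83) and Zfp36l1 without CD24highCD49fmed replicate 2 (0.93).

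Feedback inhibitors of MAP kinase signalling went both ways, with 4 of 14 in the table and a median of -0.19. Spry1 (1.93) and Spred1 (1.22), inhibitors of signalling from receptor tyrosine kinases to Ras and ERK, were higher in basal cells. Dusp4 (-1.61) and Dusp16 (-1.60), phosphatases that act on MAP kinases, were lower. All 4 were called, beside 76% of all features. Of 25 kinases, receptors and factors upstream of the response, 3 were in the table. Egfr, the EGF receptor, was higher by 1.40 and Elk3, an ETS partner of serum response factor, by 1.36, and Rps6ka5 (-0.46), a kinase that phosphorylates CREB, was not called.

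**Figure D4:**
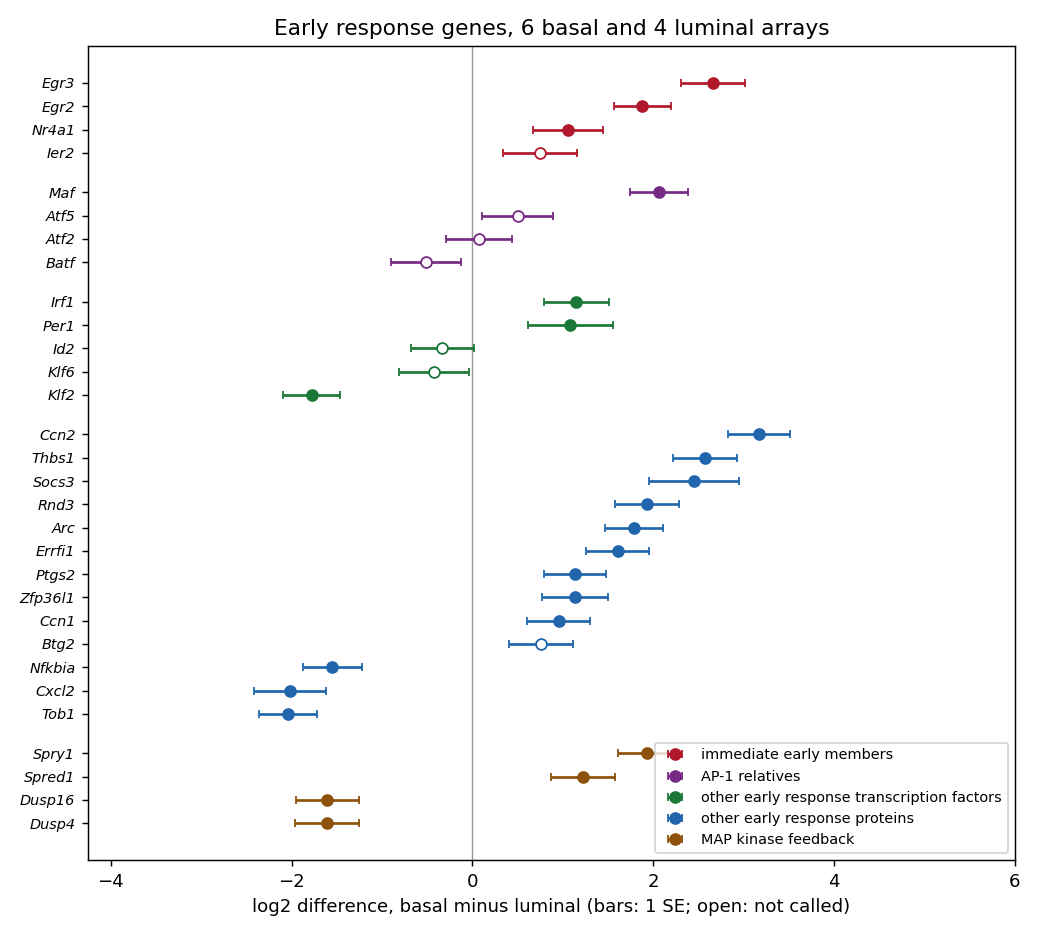
Log2 difference, basal minus luminal (x axis), with bars of 1 SE, for the 4 immediate early genes and the 26 other early response genes in the table (y axis), coloured by list. Filled points were called at an adjusted p under 0.05 and open points were not. Egr3, Egr2 and Nr4a1 lie to the right with Maf, Ccn2, Thbs1 and Socs3, while Klf2, Tob1, Cxcl2, Nfkbia, Dusp4 and Dusp16 lie to the left.

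None of the genes of these 5 lists was called between CD24highCD49fmed and CD24medCD49f-/low cells, between Thy-1+ and Thy-1- cells or between CD24medCD49fmed and CD24medCD49fhigh cells, where only 0.205%, 0.0682% and 0.0341% of all features were called, so that a count of 0 is near those shares. In CD24highCD49fmed against CD24medCD49f-/low cells the list medians were -0.86 for the relatives of AP-1, 0.15 for the other transcription factors, -0.09 for the other proteins and 0.44 for the feedback inhibitors, beside 0.35 over all features. Values on the CD24medCD49f-/low side rest on the uneven pair of arrays described above.

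Other measures also differed between basal and luminal arrays, where 34.7% of all features were called higher in basal cells. Heat shock genes, which mark stress, had 3 of 14 in the table, and their summed centred log2 value was 0.19 to 2.76 in basal arrays and -3.89 to -0.35 in luminal arrays. Hspb8 (1.69) and Hspb1 (1.16) were higher in basal cells and Dnajb1 (0.75) was not called. Fibroblast markers had 4 of 7 in the table, all called higher in basal cells, but not evenly over the basal populations. Their sums were 6.31 and 6.47 in Thy-1+CD24medCD49fhigh, 4.45 and 2.45 in CD24medCD49fmed and -1.93 and -1.96 in Thy-1-CD24medCD49fhigh arrays. In luminal arrays the sums were -5.42 to -2.31. Between Thy-1+ and Thy-1- cells, Col3a1 was called (3.29, adjusted p 0.00389 in limma) and the other 3 were not. Leukocyte markers had 1 of 8 (Lcp1, lower in basal cells by a difference of -1.76), endothelial markers 0 of 6 and erythroid markers 1 of 5 (Hba-a2, 1.73). Centred values do not show whether any marker was at background, and the part of these cells or of stress in the results was not tested.

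The 4 genes resembled each other to different degrees over the 10 arrays, which fall into a basal and a luminal cluster, so these correlations largely restate the split and are given as a description. Pearson's r was 0.91 between Egr2 and Egr3, 0.81 between Egr3 and Nr4a1, 0.74 between Nr4a1 and Ier2, 0.71 between Egr2 and Nr4a1, 0.45 between Egr2 and Ier2 and 0.37 between Egr3 and Ier2. Ier2 was closer to Nr4a1 than to either EGR gene. The genes most like the mean of the 4 over the 10 arrays were Synpo, Tln1, Nhsl1, Emid1, Stox2, Tfap2c and Col9a3, each with r = 0.98, and Nxn with r = 0.97. All 8 were called higher in basal cells, by 1.24 for Synpo to 1.96 for Tln1, the gene of the focal adhesion protein talin 1. Over all features 34.7% were called higher, and choosing genes by likeness to this mean largely fixed their calls.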

How the data were processed

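RNA of 10 sorted samples was hybridised to Affymetrix mouse expression arrays. The authors deposited log2 intensities normalised over the arrays by RMA (the labels also name GCRMA, and no version is given), centred per probe set and filtered on level and on range. The centred log2 values were used as deposited, from 10 columns. Of 3663 probe sets, 3291 had 1 symbol, 75 several and 297 none in the annotation. Probe sets of 1 gene were averaged (554 genes), which gave 2932 features. Depth has no meaning here, and the number of arrays limits the precision.

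A mean per population was fitted to all 10 arrays with lmFit and eBayes (limma 3.58.1, R 4.3.3), with 5 residual and 16.5 prior degrees of freedom. Tests were two-sided, with Benjamini-Hochberg adjustment over all features in each comparison. The fit was tested on simulated data. The study's own test, rank products, was not used, since its p-values come from permuting values over probe sets. Members and lists were chosen with earlier results of these data known. Named genes were all members, all members of the early response lists in the table, and the genes most correlated with the members' mean. The fits were repeated with each array left out, with array medians at 0, after quantile normalisation, with a replicate block, with robust moderation, with single probe sets and with only the arrays compared. Promoter windows were RefSeq's (GRCm38.p6).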

Additional observations from a re-analysis of the deposited data

How the results depend on the processing

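Of the 4 genes, 3 were called between basal and luminal cells in every setting that kept all arrays, and 2 to 4 with 1 array left out. In CD24highCD49fmed against CD24medCD49f-/low cells the count was 0, and 0 to 1 with 1 array left out. It was 0 in each setting between Thy-1+ and Thy-1- cells and between CD24medCD49fmed and CD24medCD49fhigh cells. The test of any difference called 2, and 2 to 4 with 1 array left out, all 4 without CD24medCD49f-/low replicate 2. Egr2 and Egr3 stayed called between basal and luminal cells in every setting run.

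Signs turned only among differences that were not called. In CD24highCD49fmed against CD24medCD49f-/low cells, Egr2 was -0.28 with array medians set to 0 and -0.010 to 0.19 with 1 array left out, Nr4a1 was -0.64 to 1.66 and Ier2 -2.02 to 0.33 with 1 array left out. In Thy-1+ against Thy-1- cells, Nr4a1 was -0.12 with array medians set to 0, -0.14 after quantile normalisation and -0.063 to 0.17 with 1 array left out, and Egr2 was -0.23 to 0.12. In CD24medCD49fmed against CD24medCD49fhigh cells, Egr2 was -0.017 after quantile normalisation, and Ier2 was -0.077 to 0.71 with 1 array left out. The cause was not tested. Setting array medians to 0 moved the median of all features by -0.38 between the luminal populations and by -0.17 between Thy-1+ and Thy-1- cells. The median absolute array difference of the 4 genes in CD24medCD49fmed cells was 0.23 after quantile normalisation, against 0.11 as deposited.

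The replicate numbers were not taken as pairs in the main fit. The differences of replicate 2 minus 1 correlated over features at 0.52 between the 2 luminal populations. They correlated at 0.30 between Thy-1+ and Thy-1- CD24medCD49fhigh cells, and at -0.20 to 0.08 between the other populations. Whether arrays of the same number share a batch was not tested. With the replicate number as a block the counts of called genes were unchanged at 3, 0, 0, 0 and 2, and in CD24medCD49fmed against CD24medCD49fhigh cells Nr4a1 was -0.10 and Ier2 -0.47. Replicate 3 occurs only in CD24medCD49fmed cells, which then rest on 1 array. Without 1 array, the partner left alone is assumed to vary like the other populations. In an alternative added after seeing the data, the lists were counted without CD24medCD49f-/low replicate 1, or replicate 2. Called higher were 1 or 2 relatives of AP-1 (1 with all arrays), 1 or 2 other transcription factors (2) and 7 or 10 other proteins (9). Called lower were 1 or 0 relatives of AP-1 (0) and 2 or 1 other transcription factors (1). The feedback inhibitors kept 2 and 2.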
